A study of Homo sapiens with 12 samples.

Results

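The 43 genes described here encode the machinery that copies DNA in S phase, with the enzymes that supply its nucleotides, the factors that restore chromatin behind the fork and the E cyclins that start S phase. They were taken by gene symbol from a table of read counts for 55782 symbols, and all 43 were present and passed the filter on low counts that left 15535 genes tested. The RNA came from co-cultures of 2 established human lymphoid lines, Jurkat T leukaemia cells carrying LAG3 and PD1 (JurkatLAG3+PD1+) and Raji B lymphoma cells carrying PDL1 (Raji-PDL1). In each of the 12 conditions the Raji cells had been loaded with staphylococcal enterotoxin D at 100 ng/ml, which bridges MHC class II on B cells to T cell receptors, and the cells were together for 24 h. The arms were anti-LAG3 (MK4280) with isotype antibody, anti-PD1 (MK3475) with isotype antibody, the combination of anti-PD1 with anti-LAG3, and isotype with isotype. Each antibody of an arm was present at 0.01, 0.1 or 1 µg/ml, so the total antibody at a dose was the same in all 4 arms. Each condition is 1 library from a pellet pooled over several wells, and nothing in the labels makes any library a repeat of another. The 3 doses of an arm therefore stand in for replicates, and p-values measure only the spread between these libraries.

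Replication starts when the origin recognition complex with CDC6 and CDT1 loads the MCM2 to MCM7 ring onto origins, a step called licensing. CDC45 and the GINS complex then turn that ring into the active helicase, and polymerases alpha, delta and epsilon extend the new strands, held by the PCNA clamp that the RFC complex loads. In lymphocytes, and in dividing leukaemia and lymphoma lines, most of these genes are transcribed around entry into S phase under the E2F factors. The counts of the 2 lines are added together in every library, so the share of each gene's RNA that comes from Jurkat or from Raji was not measured, and fewer cells of a line cannot be told apart from less RNA per cell.

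Promoter sequences were available from the RefSeq table (GRCh38.p14; 250 bases before to 50 after each start) for 37 of the 43 genes. Each was searched on both strands for 4 forms of the E2F site, TTTCCCGC, TTTCGCGC, TTTGCCGC and TTTGGCGC. At least 1 form stood in 18 of the 37 (48.6%), in 5.37% of the 10137 promoters of tested genes that the table holds, and in 3.33% of all 27305 promoters. The letters CCAAT, which factor NF-Y reads, stood in 56.8% of the 37 and 36.9% of the tested genes' promoters, and TTTGAA, the CHR element of late cell cycle genes, in 2.7% and 9.7%. A match describes letters and not a bound site. The sequences below belong to some of the genes that passed a test in the comparisons that follow, so that those with E2F letters can be read beside those without. Of the other genes that passed, POLE held 1 match and ORC1 none, and MCM5 had no promoter sequence available. They give the coding strand 5′ to 3′, with E2F letters in capitals. MCM2 (chr3:127598404-127598433, plus strand, 30 bases around the start site) held 2 overlapping matches. MCM7 (chr7:100101398-100101647, minus strand) held 2, and TYMS (chr18:657403-657652, plus strand) held 1; for these the 250 bases before the start are given.
MCM2: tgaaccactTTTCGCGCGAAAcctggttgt
MCM7: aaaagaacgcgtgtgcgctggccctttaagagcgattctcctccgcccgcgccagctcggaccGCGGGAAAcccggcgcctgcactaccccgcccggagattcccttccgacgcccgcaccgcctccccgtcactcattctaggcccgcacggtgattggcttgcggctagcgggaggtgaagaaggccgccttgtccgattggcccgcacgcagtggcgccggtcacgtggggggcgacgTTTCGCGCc
TYMS: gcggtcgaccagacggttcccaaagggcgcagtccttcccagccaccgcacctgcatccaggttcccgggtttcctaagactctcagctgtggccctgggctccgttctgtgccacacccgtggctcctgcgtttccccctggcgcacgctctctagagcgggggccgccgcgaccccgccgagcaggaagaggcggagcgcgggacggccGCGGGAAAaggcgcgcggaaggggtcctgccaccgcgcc

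No E2F letters of these forms were found in the windows of TK1 (chr17:78187205-78187454, minus strand), POLD1 (chr19:50384073-50384322, plus strand) and RFC1 (chr4:39366363-39366612, minus strand), whose 250 bases before the start are given.
TK1: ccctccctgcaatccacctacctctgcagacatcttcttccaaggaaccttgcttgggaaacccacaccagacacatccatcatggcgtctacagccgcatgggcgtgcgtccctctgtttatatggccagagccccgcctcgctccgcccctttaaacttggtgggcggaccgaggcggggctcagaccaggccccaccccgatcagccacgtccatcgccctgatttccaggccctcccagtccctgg
POLD1: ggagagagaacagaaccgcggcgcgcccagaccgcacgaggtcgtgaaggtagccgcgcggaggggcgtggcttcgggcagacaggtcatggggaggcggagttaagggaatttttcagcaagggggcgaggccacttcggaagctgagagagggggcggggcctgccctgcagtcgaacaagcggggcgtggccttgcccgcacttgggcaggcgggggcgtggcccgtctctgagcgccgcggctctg
RFC1: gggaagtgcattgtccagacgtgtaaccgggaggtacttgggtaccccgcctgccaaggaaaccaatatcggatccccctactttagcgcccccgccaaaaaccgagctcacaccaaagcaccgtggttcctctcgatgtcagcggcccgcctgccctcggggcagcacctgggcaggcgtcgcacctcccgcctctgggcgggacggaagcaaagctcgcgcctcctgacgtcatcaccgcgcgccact

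The libraries held 23593973 to 36581754 counts, and the 43 genes took 0.668% of them in the combination at 1 µg/ml and up to 0.72% in the other libraries. Levels are given as CPM, counts scaled to a common library size with TMM factors, and between genes only as CPM per kilobase of the gene length in the deposited table. All 24 T markers and 28 B markers had counts in every library, with sums of 1841 to 2343 CPM for T and 11120 to 12930 CPM for B markers. The T markers PTCRA (1 to 9 counts) and LAT (7 to 28 counts) were near the floor. In the mean log2 marker difference used below they weigh as much as the other T markers. A gene was called where edgeR's quasi-likelihood test gave a Benjamini-Hochberg adjusted p under 0.05 over all 15535 genes.

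RNA of the replication genes was present in every condition, at levels that varied little between libraries. PCNA, the sliding clamp, had the highest level per length, 376 ± 10.2 CPM per kilobase (SD over 12 libraries). MCM7, a ring subunit, followed with 179.9 ± 6.92 CPM per kilobase, and TYMS, thymidylate synthase, with 119.9 ± 7.21 CPM per kilobase. At the other end were CCNE1 with 3.4 ± 0.223, CCNE2 with 4.27 ± 0.259 and GINS4 with 4.33 ± 0.172 CPM per kilobase; the last 2 do not differ beyond their spread. The ring subunits MCM3, MCM6 and MCM4 came next below TYMS at 109, 96.9 and 91.8 CPM per kilobase. The ratio of a gene's highest to its lowest library ran from 1.07 for PCNA to 1.38 for UHRF1, with a median of 1.18, and was under 1.25 for 40 of the 43. The median SD over libraries was 0.07 on the log2 scale, against 0.09 for the 8933 tested genes in the same range of expression.

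**Figure D1:**
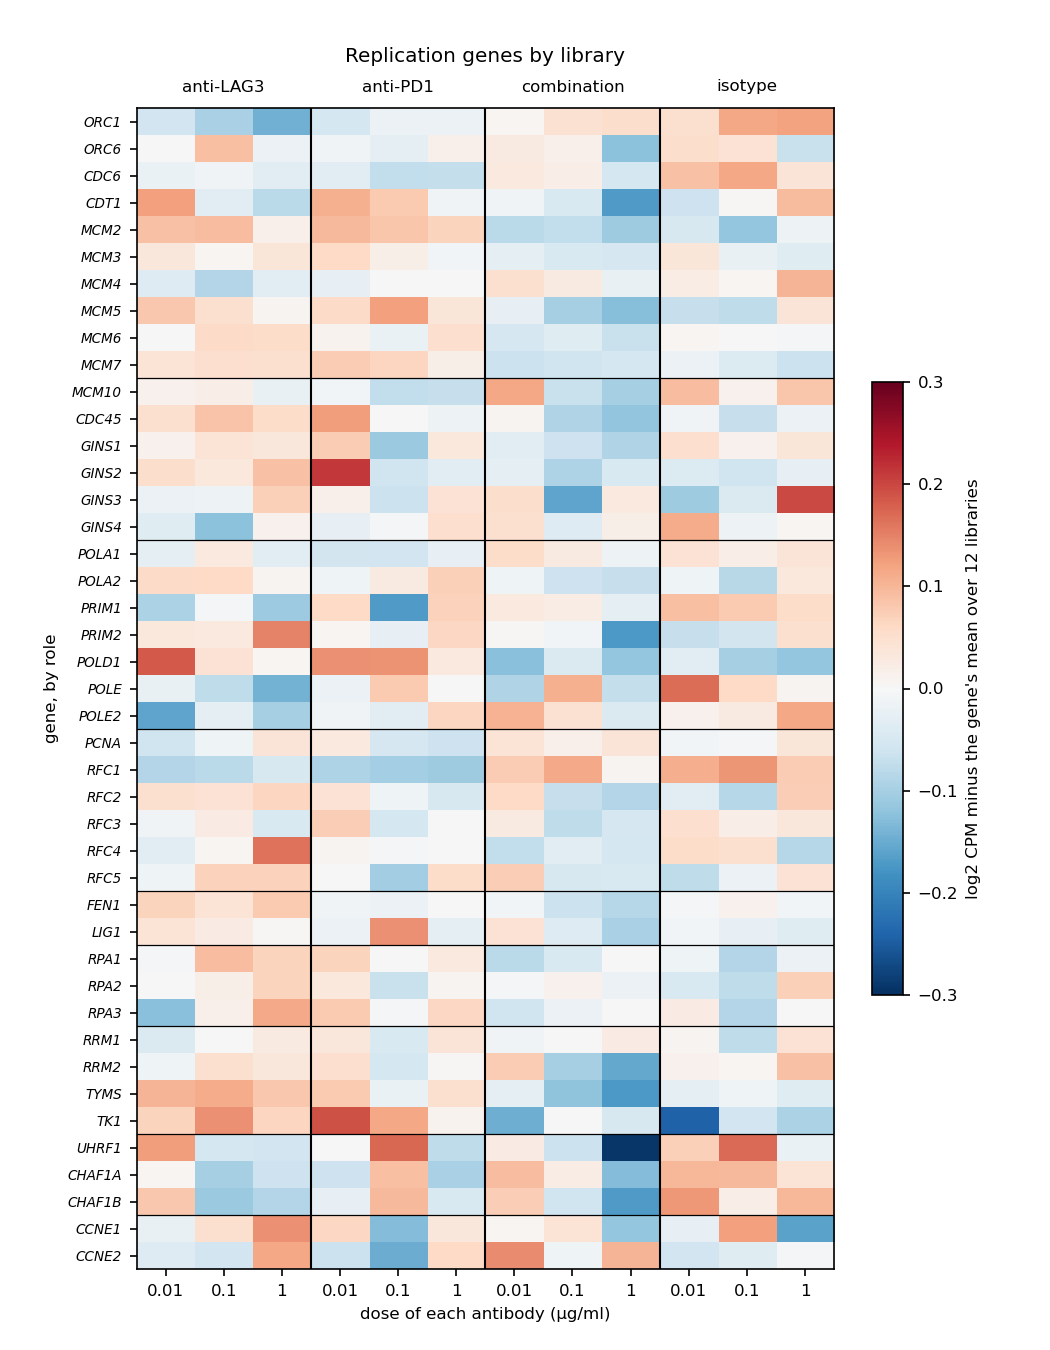
Level of each of the 43 genes in each library as log2 CPM minus that gene's own mean over the 12 libraries; columns are arms with doses 0.01, 0.1 and 1 µg/ml, rows are genes ordered by role, and the colour scale runs from -0.3 to 0.3. The combination at 1 µg/ml is the column with the most blue cells, with 7 of 43 genes above their own mean.

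Across libraries, the genes' median deviation from their own mean was lowest in the combination at 1 µg/ml (-0.05 on the log2 scale, 7 of 43 genes above their mean) and at 0.1 µg/ml (-0.04, 14 of 43). It was highest in isotype at 1 µg/ml (0.03, 26 of 43). The median over all tested genes lay within 0.01 of 0 in each of the 12 libraries. The combination at 1 µg/ml held the lowest level of 16 of the 43 genes and the highest of none; over all tested genes it held the lowest level of 12.2% and the highest of 11.8%.

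Anti-LAG3 was compared with isotype first. Of the 43 genes, 2 rose and 3 fell, which is 11.6%, where 10.0% of all tested genes were called (4.88% higher and 5.16% lower). TK1 and POLD1 rose, and ORC1, RFC1 and POLE fell, each by 0.22 or less on the log2 scale. The other 38 genes were not called, among them the other licensing genes, and the median difference of the 43 was 0.02, against -0.0015 over all tested genes. At an unadjusted p under 0.05 there were 13 of 43 genes (30.2%, against 24.7% of all tested genes).

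TK1, the cytosolic thymidine kinase of the salvage pathway (minus strand of chromosome 17, 78174075 to 78187233, GRCh38), had 74.6, 78.3 and 74.5 CPM with anti-LAG3, 81.2, 77.2 and 71.7 CPM with anti-PD1, 64.3, 71.3 and 68.8 CPM with the combination, and 60.2, 68.4 and 66.6 CPM with isotype, each at 0.01, 0.1 and 1 µg/ml in that order, which is kept below. All 6 libraries with either antibody alone lay above the isotype libraries, and the combination overlapped isotype. Its difference from isotype was 0.22 ± 0.05 with anti-LAG3 (log2 ± SE; edgeR quasi-likelihood adjusted p = 0.0123).

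POLD1, the catalytic subunit of polymerase delta (plus strand of chromosome 19, 50384204 to 50418016), had 183, 166 and 162 CPM with anti-LAG3, 178, 177 and 165 CPM with anti-PD1, 148, 157 and 149 CPM with the combination, and 158, 151 and 149 CPM with isotype. Again both arms with either antibody alone lay wholly above isotype, and the combination did not. With anti-LAG3 it was 0.16 ± 0.05 above isotype on the log2 scale (adjusted p = 0.0249).

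RFC1, the large subunit of the clamp loader (minus strand of chromosome 4, 39287456 to 39366375), had 113, 114 and 116 CPM with anti-LAG3, 112, 112 and 111 CPM with anti-PD1, 127, 129.8 and 121 CPM with the combination, and 129.5, 132 and 126 CPM with isotype. The order was the reverse of TK1, since the arms with either antibody alone lay wholly below isotype and the combination overlapped it. The log2 difference of anti-LAG3 from isotype was -0.18 ± 0.04 (adjusted p = 0.0108). The other loader subunits, RFC2 to RFC5, were not called in the edgeR arm comparisons.

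ORC1, the largest subunit of the origin recognition complex (minus strand of chromosome 1, 52372829 to 52404459), had 50.1, 48.7 and 47.1 CPM with anti-LAG3, 50.3, 51.5 and 51.4 CPM with anti-PD1, 52.3, 53.8 and 54.0 CPM with the combination, and 53.8, 56.5 and 56.6 CPM with isotype. The anti-LAG3 libraries were the lowest and did not overlap any other arm. Its log2 difference from isotype was -0.19 ± 0.05 (adjusted p = 0.0158).

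POLE, the catalytic subunit of polymerase epsilon (minus strand of chromosome 12, 132623753 to 132687365), had 111, 107 and 102 CPM with anti-LAG3, 111, 119 and 113 CPM with anti-PD1, 106, 121 and 107 CPM with the combination, and 126, 117 and 113 CPM with isotype. The anti-LAG3 libraries lay below those of isotype, while the other 2 arms overlapped isotype. At -0.16 ± 0.05 (adjusted p = 0.0493) it was the called gene nearest to the threshold.

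By role, called genes were 1 of 10 licensing genes (ORC1), none of the 6 helicase activation genes, 2 of the 7 polymerase and primase genes (POLD1 and POLE), 1 of the 6 clamp and loader genes (RFC1) and 1 of the 4 nucleotide supply genes (TK1). None of the 2 Okazaki maturation, 3 single-strand binding, 3 chromatin and 2 E cyclin genes was called by edgeR; at an unadjusted p under 0.05 there were 2 among them, RPA1 (0.09 ± 0.04) and CHAF1A (-0.13 ± 0.05), and DESeq2 called none of them (13.2% of the genes to which it gave an adjusted p). The 3 anti-LAG3 libraries lay wholly above the 3 isotype libraries for 10 genes (23.3%, against 14.7% of all tested genes) and wholly below them for 8 (18.6%, against 14.2%).

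Single libraries decide part of this count. Without isotype at 0.1 µg/ml none of the 43 was called (2.68% of all tested genes were). Of the 43, only RFC1 was left without anti-LAG3 at 1 µg/ml (4.33% of all tested genes), only POLD1 without anti-LAG3 at 0.1 µg/ml (2.98%), ORC1 and TK1 without anti-LAG3 at 0.01 µg/ml (6.98%), and ORC1 and RFC1 without isotype at 0.01 µg/ml (4.82%). POLE was called in 2 of the 12 fits with a library left out, its adjusted p reaching 0.321 in the others. The balance of T and B markers moved with this arm: their mean log2 difference, T minus B, was -2.08 ± 0.05 with anti-LAG3 and -2.33 ± 0.04 with isotype (SD, n = 3; exact two-sided permutation p = 0.1, the smallest that 3 against 3 libraries allow; 0.15 adjusted over 6 comparisons). By medians of the markers the T minus B difference of this arm from isotype was 0.04, against 0.25 by means. With the mean difference as a covariate, no gene of the 43 and none of all tested genes was called. By library the mean difference ran from -2.138 to -2.046 with anti-LAG3 and from -2.381 to -2.306 with isotype, without overlap. Covariate and arm therefore cannot be fully told apart here, and whether the balance accounts for the calls was not tested.

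**Figure D2:**
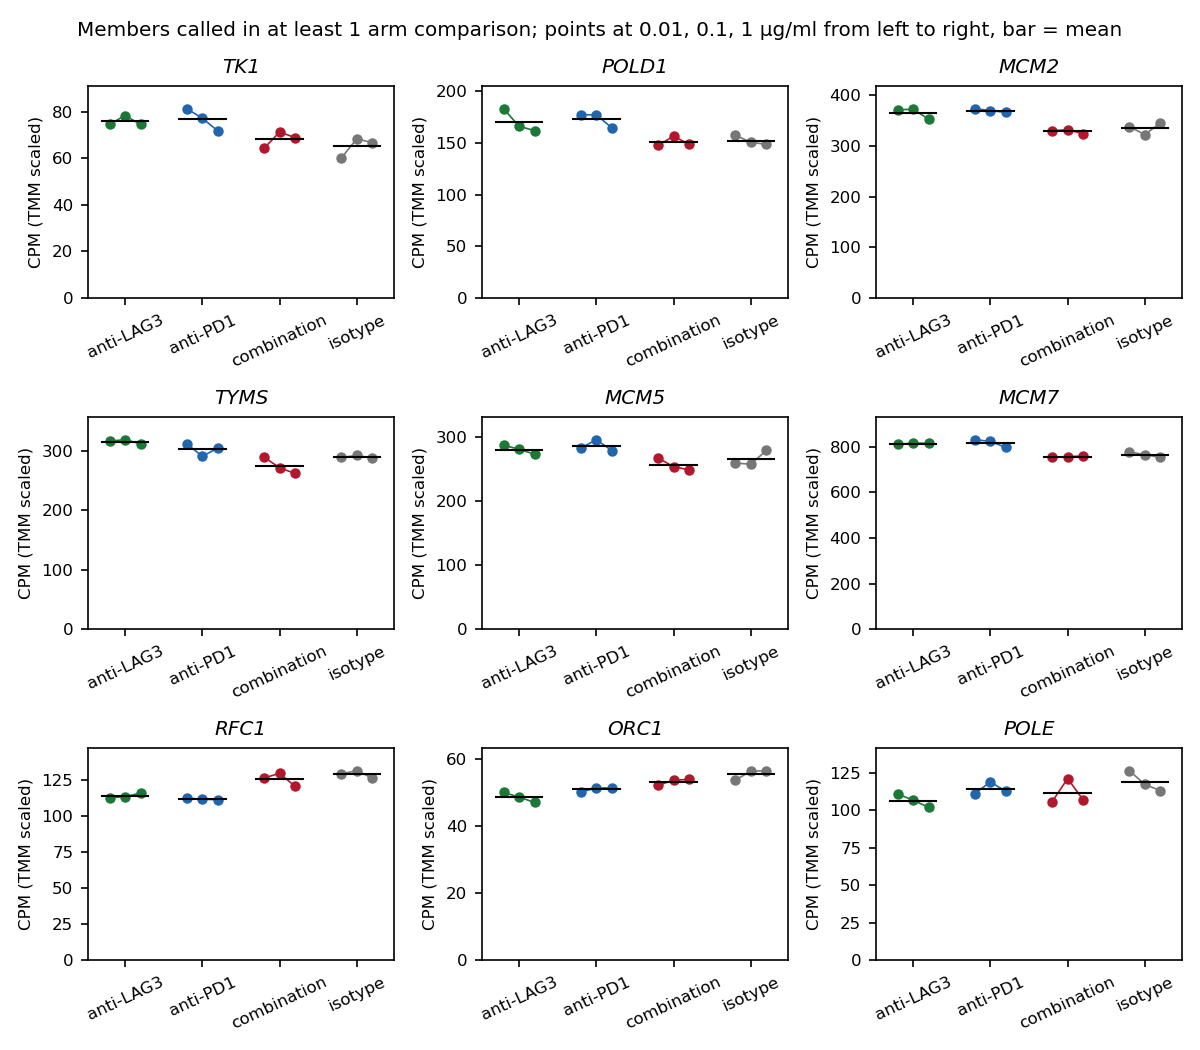
CPM (TMM scaled) of the 9 genes called in at least 1 arm comparison, in each library; the points of an arm stand at 0.01, 0.1 and 1 µg/ml from left to right and the black bar is the arm's mean. TK1 and POLD1 lie above isotype with anti-LAG3 and with anti-PD1, RFC1 lies below it, and the combination lies near isotype in each.

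Anti-PD1 against isotype gave 3 called genes of 43 (6.98%, where 3.82% of all tested genes were called, 2.09% higher and 1.73% lower), using the same isotype libraries. TK1 rose by 0.24 ± 0.05 (adjusted p = 0.0203) and POLD1 by 0.18 ± 0.05 (adjusted p = 0.0253). RFC1 fell, with a difference of -0.21 ± 0.04 (adjusted p = 0.0128). Next were MCM2 (0.14 ± 0.04, adjusted p = 0.0582) and CDC6 (-0.14 ± 0.04, adjusted p = 0.0602), neither of them called by edgeR and both called by DESeq2, which called 6.93% of its genes.

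The anti-PD1 libraries lay wholly above isotype for 5 genes (11.6%, against 11.3% of all tested genes) and wholly below it for 6 (14%, against 11.0%), shares close to those of all tested genes. The 3 calls were lost without isotype at 0.1 µg/ml or without anti-PD1 at 0.01 µg/ml, fits in which 0% of all tested genes were called. TK1 alone was left without anti-PD1 at 0.1 µg/ml (1.26% of all tested genes), and RFC1 alone when isotype at 0.01 µg/ml was left out (1.36%). There were 5 calls without the combination at 0.01 µg/ml (5.56%), and likewise with isotype at 1 µg/ml left out (6.57%). T minus B markers averaged -2.27 ± 0.10 with anti-PD1 and -2.33 ± 0.04 with isotype (SD, n = 3, exact permutation p = 0.4). With that balance as a covariate all 3 genes were called, as were 2.23% of all tested genes. Between the 2 antibodies, anti-PD1 against anti-LAG3, no gene of the 43 and 0% of all tested genes were called by edgeR, none by DESeq2 (0% of its genes), and none of the 43 had an unadjusted p under 0.05 (4.45% of all tested genes). The log2 differences of the 43 ran from -0.07 ± 0.04 (FEN1) to 0.10 ± 0.07 (POLE2). ORC1, MCM4 and POLE lay wholly above anti-LAG3 (6.98%, against 5.68% of all tested genes) and RFC1, FEN1 and TYMS wholly below it (6.98%, against 5.67%).

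**Figure D3:**
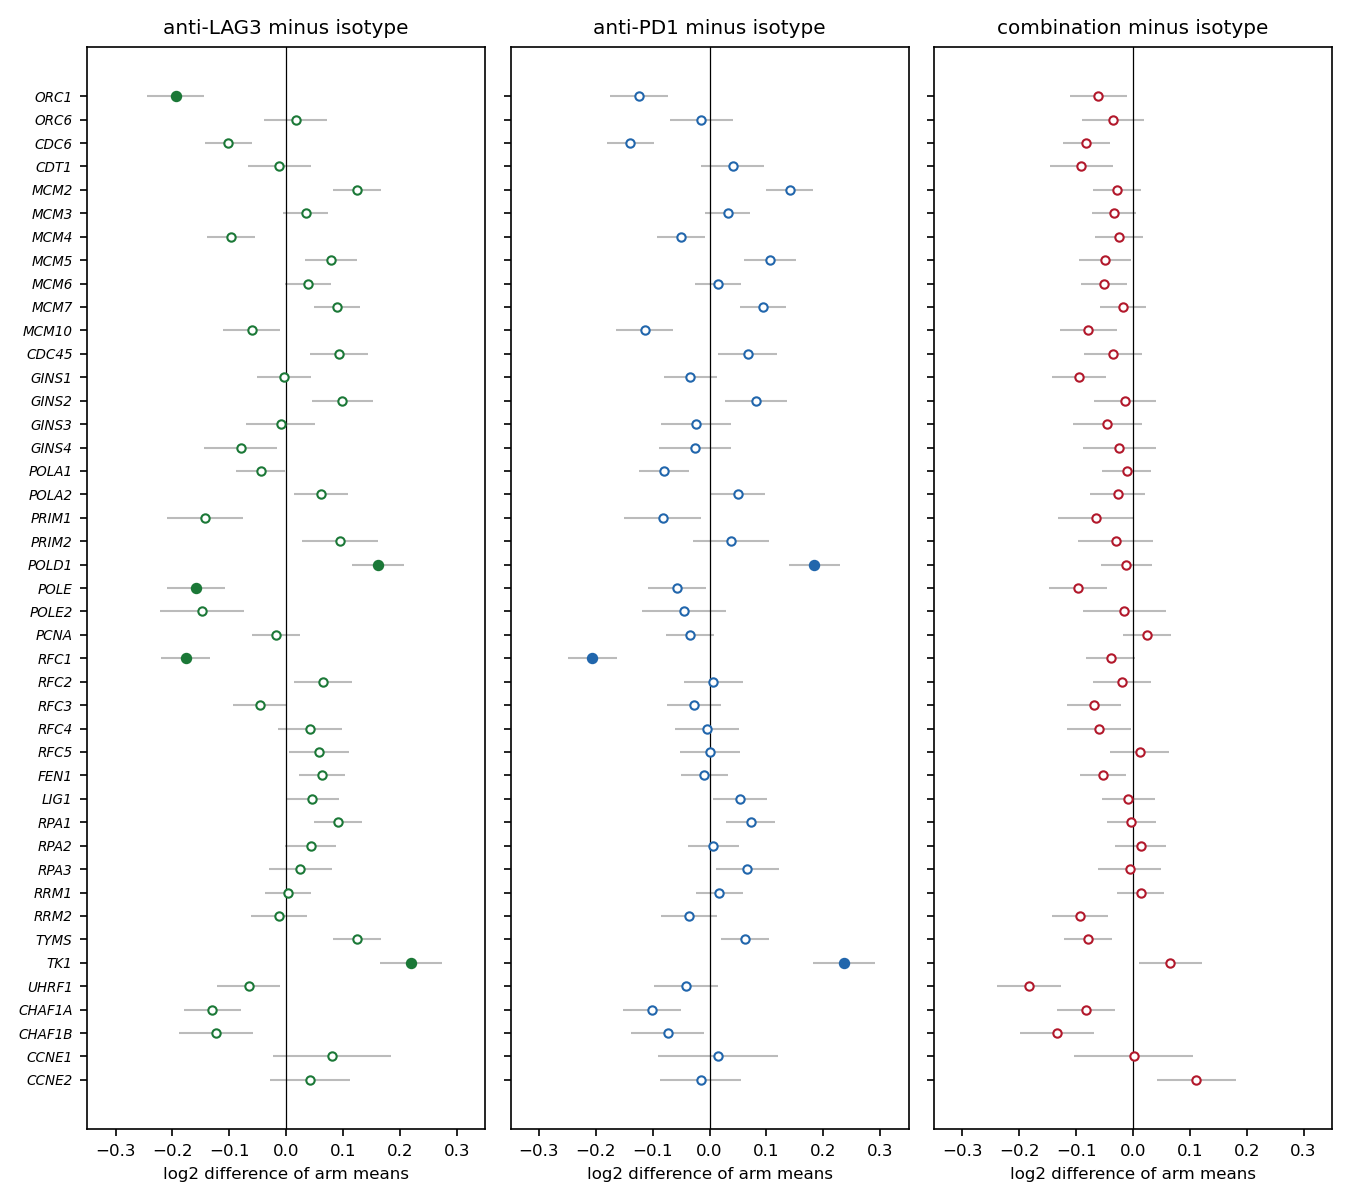
Log2 difference of the arm means for each of the 43 genes, for anti-LAG3, anti-PD1 and the combination against isotype; bars are ± 1 SE and filled points are genes called at an adjusted p under 0.05. Filled points number 5, 3 and 0 in the 3 panels, and 36 of 43 points lie left of 0 for the combination.

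With the combination no gene of the 43 was called against isotype by edgeR or by DESeq2, and 0.00644% of all tested genes were called by edgeR and 0.123% of its genes by DESeq2. The differences were small and mostly below 0: 36 of 43 genes lay below isotype, with a median of -0.03, against -0.0032 over all tested genes. Single libraries moved this lean. With a library left out, the median ran from -0.051 (without the combination at 0.01 µg/ml) to -0.019 (without isotype at 1 µg/ml). In the latter fit 14 of the 43 differences changed sign, and without the combination at 1 µg/ml 7 did. T minus B markers averaged -2.22 ± 0.05 with the combination and -2.33 ± 0.04 with isotype (SD, n = 3; exact permutation p = 0.1). At an unadjusted p under 0.05 there was 1 of 43 genes (2.33%, against 6.68% of all tested genes), UHRF1, which brings maintenance methylation to new DNA. No gene lay wholly above isotype (0%, against 4.29% of all tested genes), and CDC6, MCM6, GINS1 and PRIM1 lay wholly below it (9.3%, against 4.20%).

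UHRF1 had 154, 136 and 136 CPM with anti-LAG3, 141, 159 and 134 CPM with anti-PD1, 144, 135 and 115 CPM with the combination, and 148, 159 and 139 CPM with isotype. The combination at 1 µg/ml was its lowest library, and the 2 lower doses of the combination were within the range of the isotype arm or just below it. Over the arm its difference from isotype was -0.18 ± 0.06 (edgeR adjusted p = 0.371), and leaving out the combination at 0.01 µg/ml made it a call. That fit called 1.71% of all tested genes, against 0.00644% with all libraries. In the authors' deposited table for the combination at 1 µg/ml against the 3 isotype libraries its log2 fold change was -0.36 ± 0.10 (adjusted p = 0.0224). That was the only call for any of the 43 genes in the authors' 9 deposited tables, of which that for the combination at 1 µg/ml called 1.73% of its genes. The shares called in the other tables were 0% and 0.199% for the combination at 0.01 and 0.1 µg/ml, 0.195%, 2.84% and 2.58% for anti-LAG3, and 1.45%, 0% and 0.443% for anti-PD1 at 0.01, 0.1 and 1 µg/ml. UHRF1 is described here because of that value.

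Against anti-LAG3, the combination had 3 lower genes (6.98%, where 5.75% of all tested genes were called, 3.14% lower and 2.61% higher), and none higher. With offsets for GC content and length, described below, MCM2 and POLD1 were not among the calls and ORC1 was, on the higher side. TYMS, which makes thymidylate for DNA synthesis (plus strand of chromosome 18, 657604 to 673578), had 317, 319 and 312 CPM with anti-LAG3, 312, 291 and 305 CPM with anti-PD1, 289.9, 272 and 263 CPM with the combination, and 289, 293 and 288 CPM with isotype. The combination libraries lay below those of both antibodies alone and overlapped isotype. Its log2 difference from anti-LAG3 was -0.20 ± 0.04 (adjusted p = 0.00854).

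MCM2, a subunit of the helicase ring (plus strand of chromosome 3, 127598223 to 127622436), had 372, 373 and 353 CPM with anti-LAG3, 374, 370.1 and 366 CPM with anti-PD1, 330.3, 332 and 325 CPM with the combination, and 338, 323 and 346 CPM with isotype. Every combination library lay within the isotype range and below all 6 libraries with either antibody alone. Its log2 difference from anti-LAG3 was -0.15 ± 0.04 (adjusted p = 0.0327), and that of POLD1 was -0.17 ± 0.05 (adjusted p = 0.0267).

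The combination lay wholly below anti-LAG3 for 14 of 43 genes (32.6%, against 12.6% of all tested genes) and wholly above it for 3 (6.98%, against 12.6%). These 14 included MCM2, MCM3, MCM5, MCM6 and MCM7 of the ring, and CDC45, GINS1 and GINS2 of helicase activation, while MCM4 lay above. No call among the 43 was left without anti-LAG3 at 1 or 0.1 µg/ml or without the combination at 0.1 µg/ml, fits that called 1.01%, 0.849% and 0.296% of all tested genes. TYMS alone was left without anti-LAG3 at 0.01 µg/ml (4.22%), and there were 6 calls without isotype at 1 µg/ml (9.36%). T minus B markers were at -2.22 ± 0.05 with the combination and -2.08 ± 0.05 with anti-LAG3 (SD, n = 3, exact permutation p = 0.1). With that covariate no gene of the 43 and 2 of all tested genes were called. The combination libraries (-2.273 to -2.168) did not overlap the anti-LAG3 libraries (-2.138 to -2.046). Here too covariate and arm cannot be fully told apart.

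The combination against anti-PD1 gave no call among the 43 genes with edgeR (0.354% of all tested genes were called), 9 at an unadjusted p under 0.05 (20.9%, against 14.0%), and 3 with DESeq2, which called 1.71% of its genes, MCM2 and POLD1 lower and RFC1 higher. The edgeR values of those genes were -0.17 ± 0.04 for MCM2 (adjusted p = 0.0643), -0.20 ± 0.05 for POLD1 (adjusted p = 0.0539) and 0.17 ± 0.04 for RFC1 (adjusted p = 0.0765). In this comparison 10 genes lay wholly below (23.3%, against 9.12% of all tested genes) and 3 wholly above (6.98%, against 8.01%). Leaving out isotype at 1 µg/ml gave 5 calls (2.22% of all tested genes), and leaving out isotype at 0.01 µg/ml gave 1 (0.669%). Isotype libraries enter this comparison through the shared estimate of spread, the dose term, the filter, the TMM factors and the adjustment.

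Whether the differences of the 2 antibodies add up in the combination was tested on the log2 scale as the sum of combination and isotype less that of anti-PD1 and anti-LAG3, which is 0 where they add. Of the 43 genes, 8 departed from 0 (18.6%), where 15.3% of all tested genes did. Of these 8, 2 lay above 0 and 6 below, against 7.30% and 7.97% of all tested genes. RFC1 (0.34 ± 0.06, adjusted p = 0.000651) and ORC1 (0.26 ± 0.07, adjusted p = 0.0164) were above 0, being lower with either antibody alone and nearer to isotype in the combination. TK1 (-0.39 ± 0.08, adjusted p = 0.00155) and POLD1 (-0.36 ± 0.06, adjusted p = 0.00072) were the furthest below, followed by MCM2 (-0.29 ± 0.06, adjusted p = 0.00166) and TYMS (-0.27 ± 0.06, adjusted p = 0.00412).

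The other 2 were subunits of the helicase ring. MCM5 (plus strand of chromosome 22, 35400063 to 35425430) had 287, 281 and 273 CPM with anti-LAG3, 283, 296 and 279 CPM with anti-PD1, 267, 254 and 249 CPM with the combination, and 259, 258 and 279 CPM with isotype. MCM7 (minus strand of chromosome 7, 100092728 to 100101940) had 811, 817 and 816 CPM with anti-LAG3, 832, 825 and 798 CPM with anti-PD1, 754, 757 and 761 CPM with the combination, and 778, 766 and 754 CPM with isotype. For both, the combination libraries lay below all 6 libraries with either antibody alone and overlapped isotype. The departure from additivity was -0.23 ± 0.06 for MCM5 (adjusted p = 0.015) and -0.20 ± 0.06 for MCM7 (adjusted p = 0.0184).

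Among the 6 ring subunits, MCM3, MCM4 and MCM6 were not called. The calls of RFC1, TK1, POLD1, MCM2 and TYMS were kept with each of the 12 libraries left out in turn. Without isotype at 0.1 µg/ml those 5 were the only calls among the 43 (9.19% of all tested genes were called), so ORC1, MCM5 and MCM7 were lost. ORC1 was also lost without anti-LAG3 at 1 µg/ml, MCM7 without that library or the combination at 0.1 µg/ml, and MCM5 without the combination or anti-PD1 at 0.1 µg/ml or isotype at 0.01 µg/ml. With the marker balance as a covariate, TK1 and POLD1 were the 2 calls left of the 43 (3.73% of all tested genes were called).

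GC content of the transcript moved with these differences. TK1 and POLD1 have 62.8% and 65% GC in their longest annotated transcript, against 41.7% in RFC1 and 50.7% in ORC1. Over the 43 genes the log2 difference from isotype had a Pearson r with GC content of 0.36 for anti-LAG3 and 0.56 for anti-PD1, and the departure from additivity had -0.54. Over the 13686 tested genes with a GC value the 3 coefficients were 0.23, 0.26 and -0.31. These are descriptions across genes of the same libraries, which are not independent replicates.

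Offsets for GC content and length were fitted to each library's own trend over tested genes of these data. They remove any difference that follows GC content, whatever its source, so a weaker correlation was built in. The source of the trend was not tested. With the offsets, r over the 43 genes was -0.18 for anti-LAG3 and -0.07 for anti-PD1. TK1 was then 0.04 ± 0.05 above isotype with anti-LAG3 and POLD1 0.02 ± 0.04 (adjusted p = 0.732 and 0.816), while ORC1 stayed called at -0.25 ± 0.05 (adjusted p = 0.00475). RFC1 was no longer called at -0.11 ± 0.04 (adjusted p = 0.0883), nor was POLE at -0.11 ± 0.04 (adjusted p = 0.153). CDT1, the licensing factor (-0.18 ± 0.05, adjusted p = 0.0302), and CHAF1A, the large subunit of chromatin assembly factor 1 (-0.22 ± 0.05, adjusted p = 0.01), became calls. These 3 calls (6.98% of the 43) stand beside 4.89% of all tested genes. For anti-PD1 none of the 43 and 0.122% of all tested genes were called under the offsets. RFC1 was there at -0.15 ± 0.04 (adjusted p = 0.0858) and CHAF1A at -0.19 ± 0.05 (adjusted p = 0.0811). For the combination against anti-LAG3 the offsets left TYMS lower (-0.16 ± 0.04, adjusted p = 0.0257) and made ORC1 a call (0.18 ± 0.05, adjusted p = 0.0496), with 2.90% of all tested genes called, while MCM2 (-0.09 ± 0.04) and POLD1 (-0.05 ± 0.04) were not called. For additivity 4 were, where 7.34% of all tested genes were, with ORC1, RFC1 and CHAF1A above 0 and TYMS below. Thus RFC1, ORC1 and TYMS kept their departure from additivity under the offsets, and TK1, POLD1, MCM2, MCM5 and MCM7 did not.

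**Figure D4:**
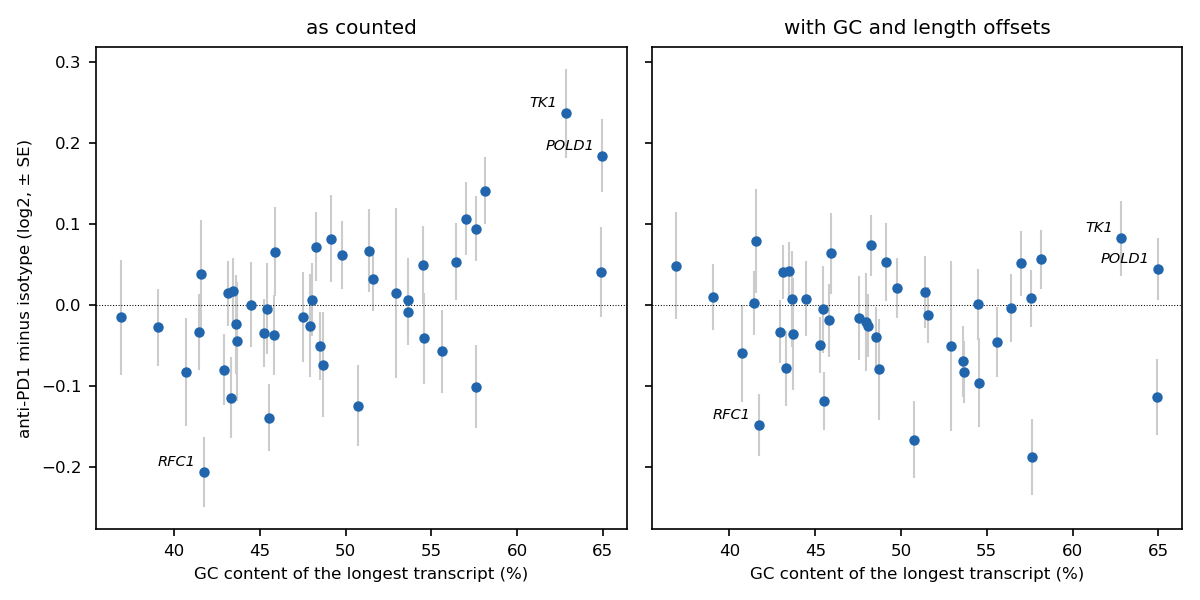
Log2 difference of anti-PD1 from isotype (± SE) of each of the 43 genes against the GC content of its longest annotated transcript, as counted on the left and with GC and length offsets on the right. TK1 at 62.8% and POLD1 at 65% GC are the highest points on the left, and the correlation is 0.56 on the left and -0.07 on the right. The offsets are fitted to remove the GC trend, so the drop is built in.

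Dose was tested as the slope of log2 level per 10-fold dose, minus the slope of the isotype arm. No gene of the 43 was called by edgeR or DESeq2 in any of the 6 slope comparisons. In edgeR, 0.0708% of all tested genes were called for anti-LAG3, 0.264% for anti-PD1, 4.63% for the combination and 0.856% for isotype against 0. DESeq2 called 0.211%, 1.82%, 2.53% and 1.88% of its genes in the same order. At an unadjusted p under 0.05 there were 3, 3, 6 and 2 of 43 genes, against 7.99%, 11.1%, 17.8% and 13.7% of all tested genes. For the combination 34 of 43 slopes were below 0, with a median of -0.03, against 0.0061 over all tested genes. With a library left out, that median ran from -0.055 (without isotype at 0.01 µg/ml) to -0.016 (without isotype at 1 µg/ml). Up to 9 of the 43 slopes changed sign, in the fits without isotype or the combination at 0.01 µg/ml. The slopes of the combination minus those of anti-PD1 and of anti-LAG3 had 1 gene each at an unadjusted p under 0.05, against 9.98% and 10.5% of all tested genes. edgeR called 0.644% and 0.766% of all tested genes there, and DESeq2 0.526% and 0.504% of its genes.

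RRM2, the small subunit of ribonucleotide reductase, which makes deoxyribonucleotides, had 330.1, 344 and 341 CPM with anti-LAG3, 345, 321 and 334 CPM with anti-PD1, 351, 311 and 299 CPM with the combination, and 336, 335 and 354 CPM with isotype. Only in the combination did each higher dose have a lower value, and its slope there was -0.15 ± 0.05 relative to isotype (adjusted p = 0.052). CDT1 had 103, 92.3 and 89.3 CPM with anti-LAG3, 102, 99.6 and 93.7 CPM with anti-PD1, 93.7, 91.4 and 83.9 CPM with the combination, and 90.4, 94.6 and 101 CPM with isotype. Its values decreased with dose in the 3 antibody arms and increased in the isotype arm, where the slope was 0.08 ± 0.03 (adjusted p = 0.304). Relative to isotype the CDT1 slope was -0.18 ± 0.05 with anti-LAG3, -0.14 ± 0.05 with anti-PD1 and -0.16 ± 0.05 with the combination (adjusted p = 0.23, 0.264 and 0.0642). RRM2 and CDT1 were called in the combination where any of the 3 anti-PD1 libraries was left out. Those fits called 5.86% to 6.01% of all tested genes for that slope, against 4.63% with all libraries. Neither gene was called in any other fit with a library left out. With all libraries, RRM2 was also called without a filter on low counts (2.26% of all tested genes) and with a mean CPM of at least 1 (5.81%). The same held with the marker covariate (8.39%), with GC and length offsets (6.54%) and for the slope against 0 (4.27%).

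**Figure D5:**
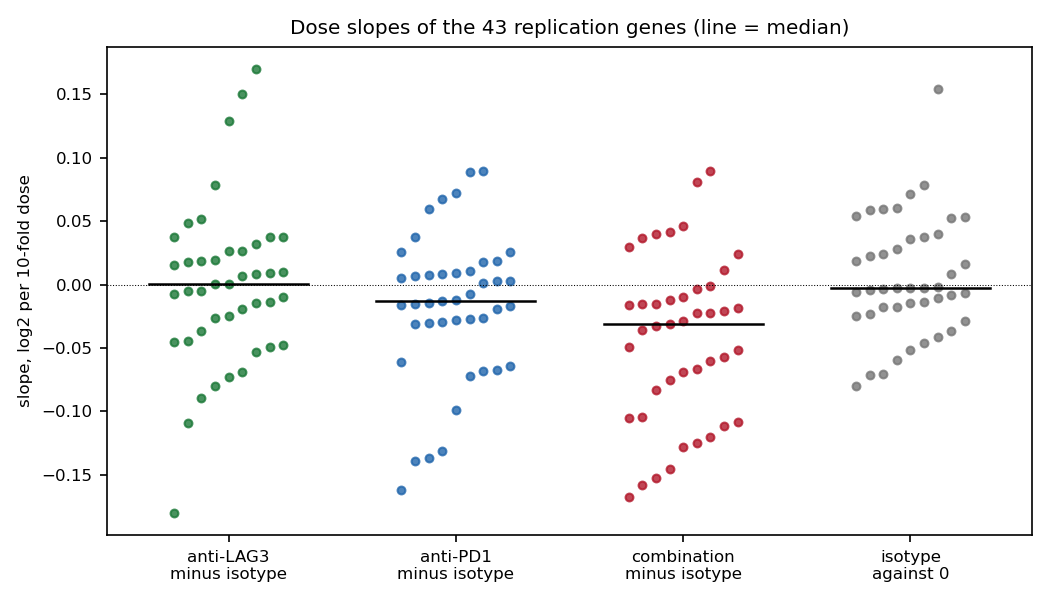
Slope of log2 level per 10-fold dose for each of the 43 genes, as anti-LAG3, anti-PD1 and combination minus isotype, and for isotype against 0; each point is a gene and the line is the median. For the combination 34 of 43 points lie below 0, and no point in any column is a called gene.

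The remaining genes chosen for description showed no call in the main edgeR comparisons, and their levels follow by role. Some were called in alternative fits, such as CHAF1A under the offsets and GINS3 in slopes with the marker covariate. In helicase activation, GINS2 had 71.8, 70.7 and 73.5 CPM with anti-LAG3, 80.2, 66.3 and 67.6 CPM with anti-PD1, 68.0, 64.9 and 67.0 CPM with the combination, and 67.3, 66.4 and 68.0 CPM with isotype. All 3 anti-LAG3 values exceeded isotype, and a single anti-PD1 library, at 0.01 µg/ml, was its highest. GINS3 had 42.6, 42.7 and 45.4 CPM with anti-LAG3, 43.7, 41.3 and 44.5 CPM with anti-PD1, 44.8, 38.7 and 44.0 CPM with the combination, and 40.1, 41.9 and 49.5 CPM with isotype. Isotype at 1 µg/ml stood highest, and every arm overlapped isotype. GINS4, another GINS subunit, had 23.1, 21.8 and 23.9 CPM with anti-LAG3, 23.3, 23.6 and 24.5 CPM with anti-PD1, 24.5, 23.1 and 24.0 CPM with the combination, and 25.6, 23.5 and 23.8 CPM with isotype, again overlapping throughout.

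PRIM2, the large primase subunit, had 27.6, 27.6 and 29.9 CPM with anti-LAG3, 27.1, 26.6 and 28.2 CPM with anti-PD1, 27.1, 26.9 and 24.0 CPM with the combination, and 25.8, 26.0 and 27.9 CPM with isotype. Its lowest library was the combination at 1 µg/ml. PCNA had 530.3, 548 and 567 CPM with anti-LAG3, 564, 534 and 529.7 CPM with anti-PD1, 568, 559 and 568 CPM with the combination, and 549.6, 551 and 567 CPM with isotype, the narrowest range of the 43. RFC2, a small clamp loader subunit, had 73.0, 72.7 and 73.8 CPM with anti-LAG3, 72.7, 70.0 and 68.3 CPM with anti-PD1, 73.6, 67.3 and 66.4 CPM with the combination, and 69.0, 66.5 and 74.2 CPM with isotype. PCNA and RFC2 overlapped isotype in each of the 3 antibody arms.

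FEN1, the flap endonuclease that trims Okazaki fragments, had 181, 178 and 182 CPM with anti-LAG3, 171, 171 and 173 CPM with anti-PD1, 172, 165 and 163 CPM with the combination, and 172, 174 and 172 CPM with isotype. LIG1, the ligase that joins them, had 123, 121 and 119.7 CPM with anti-LAG3, 118, 131 and 117 CPM with anti-PD1, 123, 116 and 111 CPM with the combination, and 119, 117 and 116 CPM with isotype. For both genes the anti-LAG3 libraries lay above isotype, and both had their lowest value in the combination at 1 µg/ml. RPA1, the large subunit of the single-strand binding complex, had 284, 304 and 299 CPM with anti-LAG3, 299, 285 and 291 CPM with anti-PD1, 269.7, 277 and 285 CPM with the combination, and 283, 268 and 282 CPM with isotype. RPA2, its middle subunit, had 126, 127 and 132 CPM with anti-LAG3, 129, 120.2 and 126 CPM with anti-PD1, 126, 127 and 124 CPM with the combination, and 122, 119 and 132 CPM with isotype. RPA1 with either antibody alone lay above isotype, while RPA2 overlapped isotype in every arm.

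Of chromatin assembly factor 1, which places histones on new DNA, CHAF1A had 112, 104 and 107 CPM with anti-LAG3, 107, 119 and 104 CPM with anti-PD1, 119, 114 and 102 CPM with the combination, and 119.6, 119.5 and 115 CPM with isotype. CHAF1B, its middle subunit, had 33.4, 29.2 and 29.8 CPM with anti-LAG3, 31.1, 33.8 and 30.6 CPM with anti-PD1, 33.3, 30.3 and 28.1 CPM with the combination, and 34.6, 32.0 and 33.8 CPM with isotype. Of the 2, only CHAF1A with anti-LAG3 lay wholly below isotype. The E cyclins, which activate CDK2 at the start of S phase, were among the genes with the lowest levels. CCNE1 had 8.53, 8.95 and 9.52 CPM with anti-LAG3, 9.04, 7.92 and 8.86 CPM with anti-PD1, 8.70, 8.91 and 7.99 CPM with the combination, and 8.50, 9.43 and 7.74 CPM with isotype. CCNE2 had 18.3, 18.0 and 20.3 CPM with anti-LAG3, 18.0, 16.9 and 19.6 CPM with anti-PD1, 20.7, 18.6 and 20.1 CPM with the combination, and 18.0, 18.3 and 18.7 CPM with isotype. Neither cyclin separated an arm with either antibody alone from isotype.

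Another 79 genes of replication outside the 43 (firing factors, accessory polymerase subunits, fork protection, E2F regulators) were counted beside them. With anti-LAG3 5 rose and 12 fell (21.5%, against 10.0% of all tested genes), with a median of -0.06. Those with the smallest p included, on the higher side, RNASEH2C, a subunit of ribonuclease H2 (0.36 ± 0.05), and DTYMK, thymidylate kinase (0.27 ± 0.05). On the lower side they included E2F8, a repressor of the E2F family (-0.34 ± 0.06), and CLSPN, the checkpoint adaptor claspin (-0.33 ± 0.06). ATAD5 (-0.33 ± 0.06) and BRCA2 (-0.37 ± 0.07) were also on that side. With anti-PD1 3 rose and 8 fell (13.9%, against 3.82%), and with the combination none was called by edgeR or DESeq2, with 9 at an unadjusted p under 0.05 (11.4%, against 6.68%). Departure from additivity was called for 19 of the 79 (24.1%, against 15.3%), 12 above 0 and 7 below. Of 30 G2 and mitosis genes, 3 were called with anti-LAG3 (10.0%, the same share as of all tested genes), CENPE (-0.44 ± 0.07) and CENPF (-0.50 ± 0.10) lower and BIRC5 (0.19 ± 0.04) higher. With the combination edgeR and DESeq2 called none of the 30, and none had an unadjusted p under 0.05. These lists were counted in the same fits as the 43 and are given as counts, with values only for the genes named.

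Some of these counts may hold reads of other genes, since whether counting used strand is not given in the sources used here. TYMS shares 967 exon bases with ENOSF1 on the opposite strand, MCM2 1113 with AC023593.1, CCNE2 1629 with INTS8 and MCM7 392 with AP4M1. RRM2 shares 1077 exon bases with AC007240.1 and POLD1 426 with AC020909.1 on the same strand. Processed pseudogenes named after PCNA, TYMS, RRM2, FEN1, RFC3, RFC5 and RPA2 are annotated, so levels of these 7 genes are uncertain where reads fit a copy equally well.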

How the data were processed

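RNA was sequenced from 12 libraries, and the labels describe both polyA RNA and total RNA. The authors deposited raw read counts per gene symbol with a gene length in base pairs, and 9 tables of log2 fold changes with p-values, each comparing 1 library with the 3 isotype libraries, per the file headers. The deposited tables also hold the authors' standard error of each log2 fold change, in log2 units and never negative, recorded here under the unit score. Trimmomatic 0.36, STAR 2.5.2b, featureCounts of Subread 1.5.2, DESeq2 and GRCh38 are named in the submitters' processing notes; the sources used here do not give annotation, strand or multi-mapping settings. Not used were 4 count columns that match no sample and 36 per-sample columns in the comparison tables.

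Counts were analysed with edgeR 4.0.16 in R 4.3.3: filterByExpr by arm with a minimum count of 10, TMM factors, a robust quasi-likelihood fit over all 12 libraries, and Benjamini-Hochberg adjustment over all 15535 genes tested. Arms were compared with dose as a factor (6 residual degrees of freedom), and slopes were fitted on log10 dose within each arm (4 residual degrees of freedom). Marker differences were compared by exact permutation. Alternatives were DESeq2 1.42.0, its size factors, other filters, a T minus B marker covariate, GC and length offsets, no dose term and leaving out each library.

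The members and lists were chosen with earlier results of these data known. Genes were described with all their values where an adjusted p was under 0.05, where they had the smallest p of their role with anti-LAG3 or in the combination slope, or where they were among the 3 highest or 3 lowest levels per kilobase; 25 of the 43 met this rule. Gene positions are from GENCODE 29 (GRCh38) and promoters from RefSeq.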

Additional observations from a re-analysis of the deposited data

Results flagged for a closer look

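For 8 of the 43 genes the difference made by 1 antibody depended on the presence of the other, by edgeR's quasi-likelihood test of that dependence on the log2 scale with Benjamini-Hochberg adjustment over all genes tested, where 15.3% of all tested genes were called. RFC1 departed from additivity by 0.34 (adjusted p = 0.000651) and ORC1 by 0.26 (adjusted p = 0.0164). TK1 departed by -0.39 (adjusted p = 0.00155), POLD1 by -0.36 (adjusted p = 0.00072), MCM2 by -0.29 (adjusted p = 0.00166) and TYMS by -0.27 (adjusted p = 0.00412). MCM5 departed by -0.23 (adjusted p = 0.015) and MCM7 by -0.20 (adjusted p = 0.0184). With offsets for GC content and length RFC1, ORC1 and TYMS were still called (7.34% of all tested genes were). With the balance of T and B markers as a covariate TK1 and POLD1 were (3.73% of all tested genes). No gene of the 8 was called in both of these fits.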

How the results depend on the processing

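The 19 calls, counted per gene and comparison, kept their sign in all 361 values recomputed for them. The number of the 43 genes called moved by over 1.5 times, or to or away from 0, as follows. Percentages in brackets are the shares called of all genes given an adjusted p in the same fit. DESeq2's test gave 5 with anti-PD1 against isotype (6.93%) and 3 for the combination against anti-PD1 (1.71%). Without a filter on low counts there was 1 for the combination against isotype (0.399%) and 2 for it against anti-PD1 (0.960%). That setting also gave 1 for the combination slope (2.26%) and 1 for the isotype slope (1.10%). The combination slope had 1 call with a mean CPM of at least 1 (5.81%) and 1 when taken against 0 (4.27%). With the T minus B marker covariate there were 0 for anti-LAG3 against isotype (0%) and 0 for the combination against anti-LAG3 (0.0129%). The covariate gave 2 for additivity (3.73%), 2 for the combination slope (8.39%) and 1 for the isotype slope (3.42%). With GC and length offsets there were 3 for anti-LAG3 (4.89%) and 0 for anti-PD1 (0.122%) against isotype. The offsets gave 4 for additivity (7.34%) and 1 for the combination slope (6.54%). Smaller moves for anti-LAG3 against isotype were 6 with DESeq2 (13.2%), where MCM2 and TYMS were gained and POLE lost, and 4 with its size factors (9.89%). For the combination against anti-LAG3 there were 2 under the offsets (2.90%). A mean CPM of at least 1 gave 4 for anti-PD1 against isotype (4.77%), 4 for the combination against anti-LAG3 (7.26%) and 9 for additivity (19.3%). Doses were matched across arms by label. Without dose as a replicate block, 4 genes were called for anti-LAG3 (9.43%), 3 for anti-PD1 (3.33%) and 0 for the combination (0%) against isotype. There were 3 for the combination against anti-LAG3 (4.78%) and 8 for additivity (14.5%). The fit without the block left the combination against anti-PD1 (0.251%) and anti-PD1 against anti-LAG3 (0%) at 0.

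With each library left out in turn, the share called of all tested genes also moved, and its range is in brackets. Counts against isotype ran from 0 to 7 for anti-LAG3 (2.68% to 12.9%), 0 to 5 for anti-PD1 (0% to 6.57%) and 0 to 1 for the combination (0% to 1.71%). For the combination they ran from 0 to 5 against anti-PD1 (0% to 2.22%) and 0 to 6 against anti-LAG3 (0.296% to 9.36%). Additivity had 5 to 11 (9.03% to 18.7%) and the combination slope 0 to 2 (0.214% to 6.01%). The other comparisons stayed at 0, with at most 1.86% of all tested genes called. Among the values of the genes chosen for description with an unadjusted p under 0.05, those that changed sign were MCM7 with anti-LAG3 (-0.00038), CDT1 in the combination against anti-PD1 (0.0042) and TK1 in the combination against anti-LAG3 (0.00028), each under the offsets. A further 2 did so with a library left out: the GINS2 slope with anti-PD1, which ran from -0.289 to 0.0186, highest without anti-PD1 at 0.01 µg/ml, and the GINS3 slope of the combination, which ran from -0.366 to 0.0332, highest without the combination at 0.01 µg/ml. The T minus B difference from isotype was -0.098 for anti-PD1 and -0.0657 for the combination when medians of markers replaced means (0.0641 and 0.116). Over all 43 genes, the offsets changed the sign of 11 differences for anti-LAG3 and 10 for anti-PD1 against isotype, 2 for the combination against isotype, 8 against anti-PD1 and 6 against anti-LAG3, and 8 departures from additivity, and the marker covariate that of 9 for anti-LAG3 against isotype. None of these sign changes was of a call. The cause of these changes was not tested.

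Each condition has 1 library, so dose-specific differences have no replicate.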
